A study of Mus musculus with 5 samples.

Results

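In a culture of mouse embryonic fibroblasts (MEFs), RNA of genes best known from macrophages was measured beside the RNA of fibroblast genes. The 10 genes described here are the complement genes C1qa, C1qb and C1qc, the receptor gene Csf1r, the signalling adaptor genes Tyrobp and Fcer1g, the lysosomal and antimicrobial genes Lyz2, Cd68 and Ctss, and the endotoxin co-receptor gene Cd14. They are 10 of the 24421 genes in the deposited tables. They were chosen by symbol, because C1qc was among the genes with the largest falls from the MEF library to both untreated stem cell libraries. The differences between MEFs and these stem cells therefore chose the set, and they are given as a description with no test.

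RNA-seq was done on 5 libraries, 1 per group, in a study of the glycine cleavage enzyme Gldc in pluripotent cells. The MEFs were primary cells from CF-1 mouse embryos, grown in serum medium, and a primary culture of this kind is not sorted by cell type. V6.5, a mouse embryonic stem cell (mESC) line, and an induced pluripotent stem cell (iPSC) line bought commercially were both untreated. The labels describe these stem cells as feeder-independent, on gelatin and in serum replacement medium with leukaemia inhibitory factor, while the study's methods also describe culture on feeder cells, which are usually fibroblasts. Medium and cell type cannot be told apart in any comparison with MEFs. The other pair of libraries came from mouse ES cells, V6.5 in the study's methods, that carried a non-targeting control shRNA (NTC) or an shRNA against Gldc (shGldc). No group had a second library, so no replicate error, interval between replicates or p-value can be given. MEF, V6.5 and iPSC values come from 1 table and NTC and shGldc values from another that was made separately, so levels of the tables are set side by side and the ratios reported for genes are taken within a table. Values are in FPKM, a count of fragments scaled to transcript length and to the depth of the library. The FPKM sum per library ran from 466650 to 576470, and depth, estimated from the steps between low values, from 22100000 to 28900000 fragments, the NTC and shGldc figures being uncertain by a factor of 2. Gldc itself was listed at 74.7 FPKM in NTC and 2.07 FPKM in shGldc.

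Macrophages are phagocytes that settle in almost every tissue, from early in embryonic life. They take up dying cells and microbes, digest them in lysosomes, and are a main source of the recognition subunit of complement. Their survival depends on the Csf1r receptor and its ligands Csf1 and Il34, and fibroblasts are a known source of Csf1. Many macrophage genes are bound by the ETS family transcription factor PU.1, the product of Spi1, which recognizes a purine-rich GAGGAA core.

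Sequence just upstream of the transcription start was taken from a table of RefSeq promoter windows (build GRCm38.p6), in which 6 of the 10 genes were matched, namely C1qb, C1qc, Cd68, Ctss, Fcer1g and Lyz2. C1qa, Tyrobp, Csf1r and Cd14 are named only. The sequences below are shown for a pair of neighbouring C1q genes, for the most abundant gene of the set (Lyz2), and for the gene at or above 1 FPKM in every library (Cd68). They lie at chr4:136886201-136886450 (C1qb), chr4:136893066-136893164 (C1qc), chr10:117282322-117282522 (Lyz2) and chr11:69666171-69666420 (Cd68), all on the minus strand and written 5′ to 3′, with bases inside the GENCODE gene left off. Capitals mark GAGGAA (the PU.1 core), AGGAAG (a general ETS core) and TGAGTCA (the AP-1 site) on either strand.
C1qb: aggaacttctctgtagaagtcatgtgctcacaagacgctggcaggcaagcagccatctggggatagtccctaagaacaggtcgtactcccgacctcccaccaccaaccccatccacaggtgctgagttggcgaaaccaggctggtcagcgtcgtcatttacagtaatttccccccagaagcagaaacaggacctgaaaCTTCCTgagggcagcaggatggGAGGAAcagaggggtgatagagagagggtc
C1qc: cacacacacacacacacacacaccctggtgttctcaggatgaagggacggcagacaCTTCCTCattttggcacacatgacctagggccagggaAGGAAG
Lyz2: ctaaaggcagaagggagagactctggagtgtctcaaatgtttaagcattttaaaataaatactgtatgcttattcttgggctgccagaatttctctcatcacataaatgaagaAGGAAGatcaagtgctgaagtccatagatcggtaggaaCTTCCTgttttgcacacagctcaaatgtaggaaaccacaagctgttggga
Cd68: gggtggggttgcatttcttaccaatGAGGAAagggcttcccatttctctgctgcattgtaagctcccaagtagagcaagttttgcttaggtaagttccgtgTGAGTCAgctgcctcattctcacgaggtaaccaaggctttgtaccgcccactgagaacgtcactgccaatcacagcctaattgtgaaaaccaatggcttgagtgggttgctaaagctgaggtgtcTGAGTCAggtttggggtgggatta
Over the 250 bases before the start, GAGGAA lay in 4 of the 6 windows (C1qb, C1qc, Cd68 and Ctss), and in 23.3% of all 32851 RefSeq windows of this length. AGGAAG lay in 4 of the 6 (C1qb, C1qc, Fcer1g and Lyz2) and in 29.5% of all windows. The AP-1 site was found in Cd68 alone, in 2 copies, and in 4.46% of all windows. GAGGAA and AGGAAG share letters, and in C1qc both were read from the same CTTCCTC stretch. These motifs were chosen after the sequences had been seen, and a match describes the letters, not binding.

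**Figure D1:**
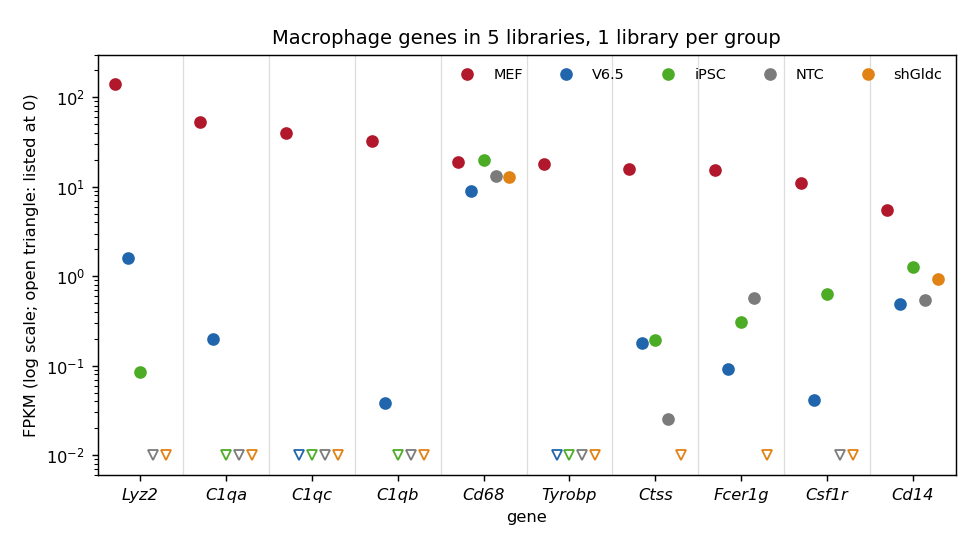
FPKM (log axis) of the 10 macrophage genes, ordered by their MEF level, in the 5 libraries; each point is 1 library and an open triangle marks a value listed at 0. Of the 10 genes, 9 were highest in MEFs, which includes the contrast that chose the set. The 5 values of Cd68 lay between 9.04 and 19.9 FPKM.

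The 10 genes were all present in MEFs, at 5.49 to 141.7 FPKM, and most were near 0 in the 4 stem cell libraries. Of the 10, 9 were higher in MEFs than in every other library, a count for which the share of all genes was not computed. At or above 1 FPKM in MEFs and below 1 FPKM in the other 4 were 7 of the 10, and 3.46% of all genes. Both counts include the contrast that chose the set. An FPKM of 1 was reached by 2 of the genes in V6.5 (Cd68 and Lyz2), by 2 in iPSCs (Cd68 and Cd14), and by Cd68 alone in NTC and in shGldc. Added together, the 10 genes made up 351.1 FPKM, or 0.0752% of the FPKM sum, in MEFs, against 11.7 FPKM in V6.5, 22.4 FPKM in iPSCs, 14.2 FPKM in NTC and 13.6 FPKM in shGldc, and most of each stem cell sum was Cd68. In bulk RNA, fewer cells of a type and less RNA per cell cannot be told apart.

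Ratios are differences in log2(FPKM + 0.1), and a gene passed the filter when it reached 1 FPKM in either library compared. In V6.5, 10 of the 10 genes were at least 2-fold lower than in MEFs (9 with a pseudocount of 1, without Cd68), where 23.3% of 12840 genes were, and 8 were at least 32-fold lower, where 1.71% were. In iPSCs, 9 of the 10 were at least 2-fold lower, where 21.3% of 13032 genes were, and 7 were at least 32-fold lower, where 2.32% were. The median log2 ratio of the 10 genes was -6.37 in V6.5 and -6.61 in iPSCs, beside 0.25 and 0.31 over all genes, or -6.47 and -6.31 with no pseudocount and every value under 3 fragments set to 3 fragments. With a pseudocount of 1 the medians were -4.08 and -4.02, and 4 genes were at least 32-fold lower in each. Both comparisons use the same MEF library, and the genes were chosen on them, so nothing is read from these counts. By the smaller of its falls to V6.5 and to iPSCs, C1qc ranked 3 of 13298 genes, C1qb ranked 7, Tyrobp 9 and C1qa 11, while Csf1r ranked 412, Cd14 1239 and Cd68 5009. These ranks repeat the contrast that chose the set, and for genes near 0 their order depends on the pseudocount. With values under 3 fragments set to 3, Tyrobp was at -6.46 in V6.5 and -6.30 in iPSCs, and C1qa at -8.06 and -8.66.

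**Figure D2:**
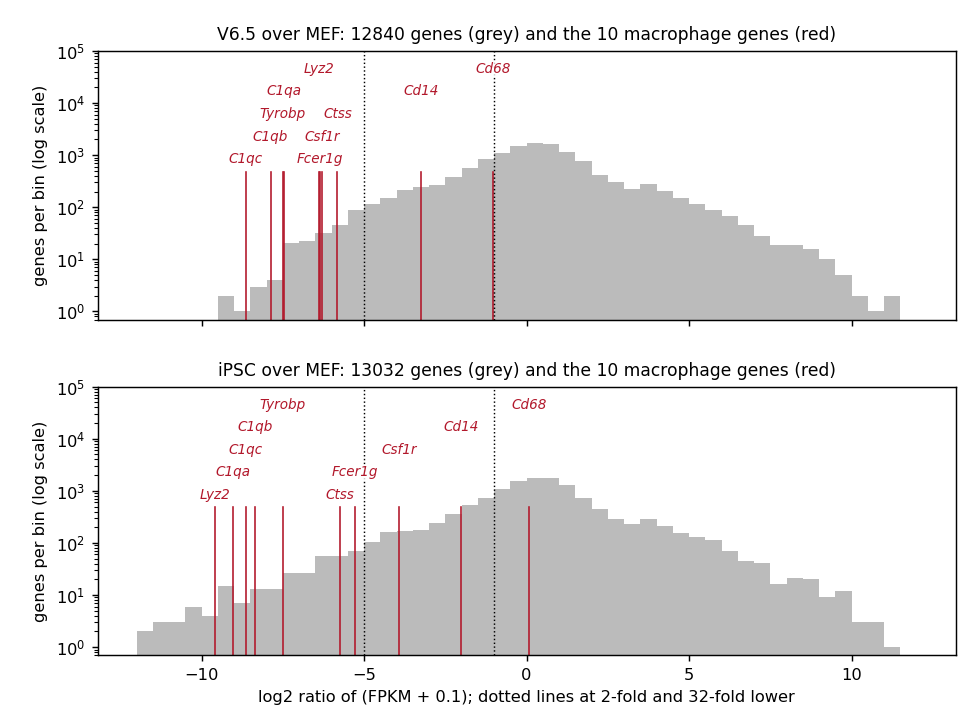
Distribution of log2 ratios of (FPKM + 0.1) over all genes (grey, log axis) for V6.5 over MEF (top) and iPSC over MEF (bottom), with the 10 macrophage genes as red lines and dotted lines at 2-fold and 32-fold lower. Cd14 and Cd68 lay right of the 32-fold line in both panels and Csf1r in iPSCs only, at -3.93.

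C1q, the recognition subunit of the first complement component, is built from 3 chains, and all 3 genes were detected in MEFs at similar levels. C1qa, at mm10 chr4:136895917-136898803, was listed at 52.7 FPKM in MEFs, 0.197 FPKM in V6.5 and 0 in iPSCs, NTC and shGldc. C1qb, at chr4:136880129-136886187, was listed at 32.3 FPKM in MEFs, 0.0382 FPKM in V6.5 and 0 in the other 3. C1qc, at chr4:136889804-136893065 between the other genes, was listed at 39.8 FPKM in MEFs and at 0 in all 4 stem cell libraries. The 3 genes lie on the minus strand within 18675 bp. Their MEF levels per length stayed within 1.63-fold of each other, C1qa being 1.32-fold above C1qc and C1qc 1.23-fold above C1qb. In fragments, the MEF values stand for about 1349 of C1qa, 865.4 of C1qb and 1179 of C1qc. The V6.5 values stand for about 5.05 fragments of C1qa, 267.6-fold below MEFs per length, and 1.03 of C1qb, under the 3 fragments taken as the floor. Fragment numbers follow from FPKM, transcript length and the estimated depth, are approximate, and cover counting error only. C1qa, C1qb and C1qc share no 50-base stretch with transcripts of other genes and overlap no other annotated gene.

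Genes of the proteins that work with C1q had lower levels in MEFs than the C1q genes, and they did not all follow the same pattern. Among 13 genes of C1 proteases, later complement components, receptors and inhibitors, 9 passed the filter, of which 5 were at least 2-fold lower in V6.5 and none at least 2-fold higher, and 7 were lower and 1 higher in iPSCs. Over all genes, 30.3% were at least 2-fold higher in V6.5 and 31.5% in iPSCs, beside the shares given above for lower. C1ra, a protease of the C1 complex, was listed at 5.19 FPKM in MEFs, 0.360 FPKM in V6.5 and 0 in the other 3. C1s1, the protease it activates, was spread over all libraries, with 2.63 FPKM in MEFs, 2.24 FPKM in V6.5, 1.04 FPKM in iPSCs, 3.26 FPKM in NTC and 1.17 FPKM in shGldc. Serping1, the C1 inhibitor, was at 9.60 FPKM in MEFs and between 4.65 and 13.2 FPKM in the stem cells. C3ar1 and C5ar1, receptors for complement fragments on myeloid cells, reached 2.69 and 2.80 FPKM in MEFs and at most 0.0526 FPKM elsewhere. The complement substrates C3 (0.153 FPKM) and C4b (0.124 FPKM) were below 1 FPKM in MEFs. Cr1l, a membrane regulator of complement, was the most abundant of the 13 in MEFs at 20.5 FPKM.

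Csf1r, the receptor tyrosine kinase that macrophages need to live, and its ligand Csf1 were both detected in MEFs. Csf1r, at chr18:61100598-61132149, was listed at 11.1 FPKM in MEFs, 0.0418 FPKM in V6.5, 0.634 FPKM in iPSCs and 0 in NTC and shGldc. The MEF level was 264.5-fold that of V6.5 and 17.4-fold that of iPSCs. These values stand for about 1280 fragments in MEFs, 4.85 in V6.5 and 66.0 in iPSCs. The gene overlaps Mir6983 on its own strand and Hmgxb3 on the other. Csf1 stood at 60.6 FPKM in MEFs, 5.48-fold above Csf1r per length, and at 6.03 FPKM in V6.5, 0.799 FPKM in iPSCs, 0.230 FPKM in NTC and 0.263 FPKM in shGldc. Il34, the other ligand, went the opposite way in some libraries, with 1.25 FPKM in MEFs, 0.661 FPKM in V6.5, 1.81 FPKM in iPSCs, 4.77 FPKM in NTC and 5.34 FPKM in shGldc. Of 9 ligands, related receptors and downstream signalling genes, 7 passed the filter, and besides Csf1 none was at least 2-fold lower in V6.5 or iPSCs, while 2 were at least 2-fold higher in V6.5 and 4 in iPSCs, where 30.3% and 31.5% of all genes were. Among those higher were Inpp5d, a lipid phosphatase that damps such signals, with 2.22 FPKM in MEFs, 33.6 FPKM in V6.5 and 19.6 FPKM in iPSCs, and Plcg2, a phospholipase, with 3.71, 35.7 and 24.4 FPKM. Grb2, an adaptor of receptor tyrosine kinases in most cells, was at 35.3 FPKM in MEFs.

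Tyrobp (DAP12) and Fcer1g (the FcR gamma chain) carry the tyrosine motif, called ITAM, through which receptors that lack one of their own reach the kinase Syk. Tyrobp, at chr7:30413760-30417585, was listed at 17.9 FPKM in MEFs, about 264 fragments, and at 0 in all 4 stem cell libraries. Fcer1g, at chr1:171229572-171234365, was listed at 15.6 FPKM in MEFs, 0.0916 FPKM in V6.5, 0.307 FPKM in iPSCs, 0.578 FPKM in NTC and 0 in shGldc. Its MEF level was 50.8-fold that of iPSCs, where about 4.64 fragments stood behind the value, while V6.5 had about 1.54, under the floor. The 2 adaptors were thus close in MEFs and both under 1 FPKM in all other libraries.

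Of 26 genes of this pathway in the tables, receptors and kinases, 6 reached 1 FPKM in MEFs, and most receptors were below that or at 0, such as Clec4d (0.800 FPKM), Trem1 (0.0736 FPKM) and Fcer1a (0). Trem2, a lipid receptor that signals through Tyrobp, was at 11.6 FPKM in MEFs, 0.545 FPKM in V6.5 and 0 in the other 3. Fcgr3 and Fcgr1, immunoglobulin receptors that use Fcer1g, were at 6.28 and 1.31 FPKM in MEFs and below 1 FPKM in every other library. Syk was lower in MEFs (2.88 FPKM) than in V6.5 (10.4 FPKM), iPSCs (4.46 FPKM), NTC (9.80 FPKM) and shGldc (5.37 FPKM). Lyn, a Src family kinase, was higher in MEFs, at 7.62 FPKM, than in the others, where it ran from 1.05 to 2.43 FPKM. Of the 26, 8 passed the filter in V6.5, with 4 at least 2-fold lower and 4 higher than in MEFs, where 23.3% and 30.3% of all genes were, and 7 passed in iPSCs, with 4 lower and 2 higher, where 21.3% and 31.5% were.

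Cd14, which hands endotoxin to the Tlr4 receptor, was the least abundant of the 10 genes in MEFs and, after Cd68, the least different in stem cells. It lies at chr18:36725067-36726798 and was listed at 5.49 FPKM in MEFs, 0.488 FPKM in V6.5, 1.28 FPKM in iPSCs, 0.537 FPKM in NTC and 0.942 FPKM in shGldc. The MEF level was 11.3-fold that of V6.5 and 4.30-fold that of iPSCs, with about 222 fragments in MEFs, 19.7 in V6.5 and 46.4 in iPSCs. Tlr4 itself was at 1.65 FPKM in MEFs and listed at 0 in the other 4, and Ly96, the MD-2 subunit that binds endotoxin, was at 2.93 FPKM in MEFs, 0 in V6.5 and iPSCs, 0.335 FPKM in NTC and 0.381 FPKM in shGldc. The shared signalling adaptors Myd88 (23.7 FPKM in MEFs) and Ticam1 (10.8 FPKM) were present throughout, and in the stem cell libraries ran from 5.47 to 9.36 FPKM and from 3.81 to 4.82 FPKM. Of 13 genes in this pathway 8 passed the filter, of which 7 were at least 2-fold lower in V6.5 (23.3% of all genes) and 6 in iPSCs (21.3%), with none at least 2-fold higher.

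**Figure D3:**
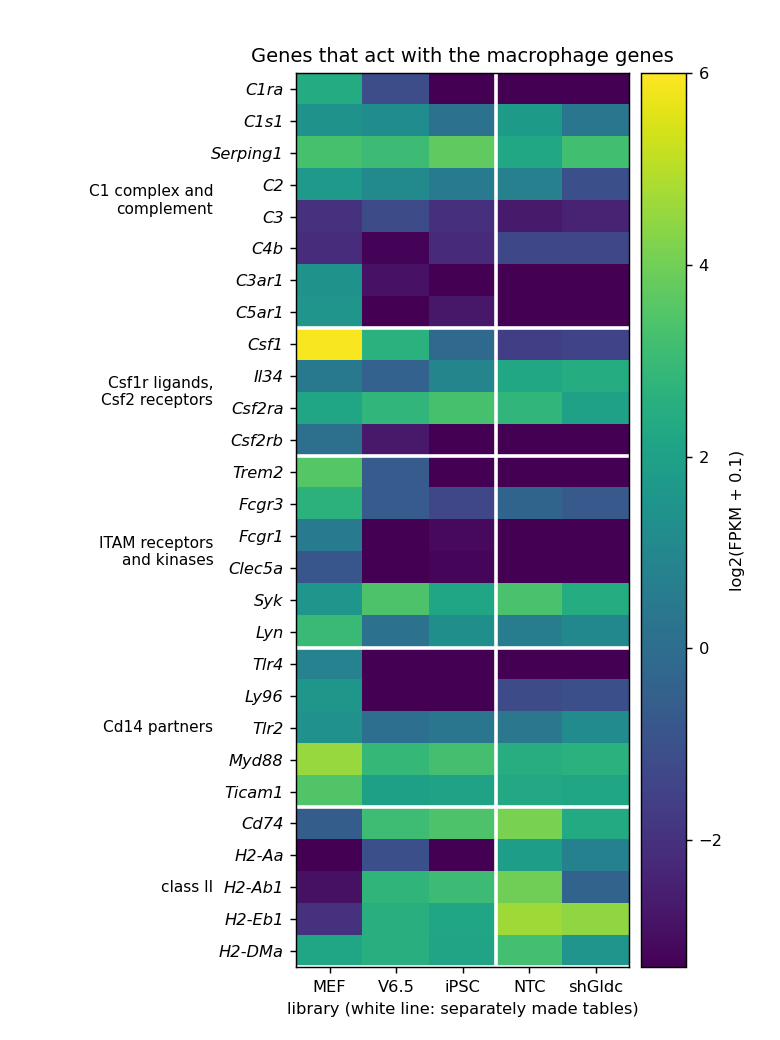
Heat map of log2(FPKM + 0.1) for genes that act with the macrophage genes, chosen for their role, in the 5 libraries; a white vertical line parts the separately made tables. C1ra, Trem2 and Tlr4 were brightest in MEFs, Serping1 and Syk had signal in all libraries, and the class II genes were dark in MEFs except H2-DMa.

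Lyz2, the lysozyme of macrophages and other myeloid cells, was the most abundant of the set in MEFs. At chr10:117277331-117282321, it was listed at 141.7 FPKM in MEFs, 1.59 FPKM in V6.5, 0.0856 FPKM in iPSCs and 0 in NTC and shGldc. This put it at rank 517 of all genes in MEFs, 2.69-fold above C1qa and 25.8-fold above Cd14 per length. About 4588 fragments stood behind the MEF value, 51.5 behind that of V6.5, 89.3-fold lower per length, and 2.49, under the floor, behind that of iPSCs. Its close copy Lyz1, the lysozyme of gut Paneth cells, was listed at 0 in all 5 libraries. Since 15.4% of the 50-base stretches of Lyz2 also occur in Lyz1, reads of the copies could in part be exchanged.

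Ctss, cathepsin S, is a protease of antigen-presenting cells that trims the class II invariant chain. At chr3:95526786-95556403, overlapping the pseudogene Hmgb1-ps5 on its own strand, it was listed at 15.6 FPKM in MEFs, 0.178 FPKM in V6.5, 0.196 FPKM in iPSCs, 0.0254 FPKM in NTC and 0 in shGldc. The MEF level was 87.7-fold that of V6.5 and 79.7-fold that of iPSCs, where about 5.95 and 5.88 fragments were counted. Of the class II genes themselves, H2-DMa, a chain of the peptide-loading helper, was at 4.46 FPKM in MEFs, while Cd74, the invariant chain, was at 0.579 FPKM, H2-Ab1 at 0.0337 FPKM and H2-Aa at 0. Cd74 was higher in every stem cell library, at 8.59 FPKM in V6.5, 10.4 FPKM in iPSCs, 17.4 FPKM in NTC and 5.11 FPKM in shGldc. Ctss and Cd74 thus went in opposite directions between MEFs and stem cells.

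Cd68, a heavily glycosylated protein of the late endosome, was present in all libraries, and its level in V6.5 was 2.07-fold below that in MEFs. At chr11:69664213-69666153, it was listed at 18.7 FPKM in MEFs, 9.04 FPKM in V6.5, 19.9 FPKM in iPSCs, 13.04 FPKM in NTC and 12.7 FPKM in shGldc. The log2 ratio to MEFs was -1.04 in V6.5 and 0.09 in iPSCs, the latter turning to -0.21 when libraries were rescaled to 1 FPKM sum and to -0.23 when ratios were centred on the median of all genes, but staying at 0.10 with rescaling by the upper quartile.

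The broad lysosome genes stood between these patterns. All 23 genes of lysosomal enzymes and membrane proteins were above 1 FPKM in MEFs, led by Cd63 (1068.1 FPKM), Ctsd (715.9 FPKM) and Lamp1 (511.1 FPKM), a tetraspanin, an aspartic protease and a main membrane glycoprotein of lysosomes. Of the 23, 19 were at least 2-fold lower in V6.5 (23.3% of all genes) and 13 in iPSCs (21.3%), with none at least 2-fold higher (30.3% and 31.5%), and the median log2 ratio was -1.48 and -1.33. The lysosome genes kept a median of 35.8% of their MEF level in V6.5 and 39.8% in iPSCs. Ctsk, the cathepsin of osteoclasts that fibroblasts also make, was the furthest from the others, with 48.3 FPKM in MEFs, 0.497 FPKM in V6.5, 0.0218 FPKM in NTC and 0 in iPSCs and shGldc.

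Of 37 further macrophage markers, 26 reached 1 FPKM in MEFs and 24 did so in MEFs but in none of the other 4 libraries. Over all genes, 45.7% reached 1 FPKM in MEFs and 3.46% did so in MEFs alone. The marker list was made with earlier results of these data known, and the second count uses the contrast that chose the set. These counts therefore describe the label of the set and do not test it. The highest were Trem2 (11.6 FPKM), Fcrls (10.7 FPKM) and Mpeg1 (10.5 FPKM), followed by the fractalkine receptor Cx3cr1 at 7.94 FPKM. The defining markers Adgre1 (F4/80), Aif1 (Iba1), Msr1 and Mrc1 were at 3.75, 4.85, 3.60 and 3.25 FPKM, and each was at most 0.0475 FPKM elsewhere. Cd163, Marco and Timd4, markers of particular tissue macrophages, were listed at 0 in all 5 libraries, and Lyve1 was at 0.0156 FPKM in MEFs. Slc11a1, an ion transporter of phagosomes, was at 2.47 FPKM in MEFs, 3.56 FPKM in V6.5, 1.65 FPKM in iPSCs, 2.11 FPKM in NTC and 0.264 FPKM in shGldc.

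Genes of leukocytes in general were mixed. Of 21, 16 reached 1 FPKM in MEFs, and of the 17 that passed the filter 12 were at least 2-fold lower and 1 higher in V6.5, where 23.3% and 30.3% of all genes were, and 11 lower and 3 higher in iPSCs, where 21.3% and 31.5% were. Ptprc (CD45), the common leukocyte antigen, was low in MEFs, at 0.651 FPKM, listed at 0 in V6.5 and iPSCs, and at 0.331 FPKM in NTC and 0.480 FPKM in shGldc. Spi1, the gene of PU.1, was at 8.72 FPKM in MEFs, 1.83 FPKM in V6.5, 4.34 FPKM in iPSCs, 1.34 FPKM in NTC and 2.21 FPKM in shGldc, so it was highest in MEFs but above 1 FPKM everywhere. Itgam and Itgb2, the chains of the integrin Mac-1, were at 2.12 and 2.60 FPKM in MEFs and below 1 FPKM in all other libraries. Laptm5, a lysosomal membrane protein of blood cells, was at 18.03 FPKM in MEFs and higher in all 4 stem cell libraries, up to 144.6 FPKM in iPSCs. The most abundant of the list in MEFs, Arhgdib (158.9 FPKM) and Cd44 (30.5 FPKM), are not limited to leukocytes.

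Markers of other blood lineages were mostly at or near 0 in the MEF library. Of 10 neutrophil genes in the tables none reached 1 FPKM and 9 were listed at 0, of 11 genes of T and NK cells none reached 1 FPKM (the highest, Lck, was at 0.998 FPKM), of 7 B cell genes none did and 5 were at 0, and of 10 erythroid genes none did and 6 were at 0. Of 10 mast cell genes, which bear on Fcer1g, Gata2 alone reached 1 FPKM, at 1.46, and Cpa3, Fcer1a and Mcpt4 were at 0. Of 7 megakaryocyte genes 2 reached 1 FPKM and Gp9 was at 0, with Gp1bb at 11.6 FPKM and Pf4, which macrophages can also make, at 2.72 FPKM. Of 8 osteoclast genes 4 reached 1 FPKM (Ctsk, Mmp9, Acp5 and Tnfrsf11a), but Calcr and Ocstamp were at 0. Of 9 genes used to mark microglia 4 did, among them Tmem119 (69.6 FPKM) and Olfml3 (69.4 FPKM), which mesenchymal cells also express, and Cx3cr1, while P2ry12 was at 0.486 FPKM and Sall1 at 0.312 FPKM. The 14 fibroblast markers were all present in MEFs and summed to 9150.2 FPKM, or 1.96% of the library, led by Col1a1 (3672.1 FPKM), Col1a2 (2223.3 FPKM) and Fn1 (1254.9 FPKM). Endothelial markers were split, with Emcn at 9.96 FPKM and Kdr at 1.81 FPKM, but Pecam1 and Tie1 at 0. Of the epithelial, neural and muscle genes, 3 of 6, 2 of 8 and 2 of 7 reached 1 FPKM, and of 8 pluripotency genes Dppa5a alone did, at 1.55 FPKM. Whether cells other than fibroblasts carried the RNA of the 10 genes was not tested.

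**Figure D4:**
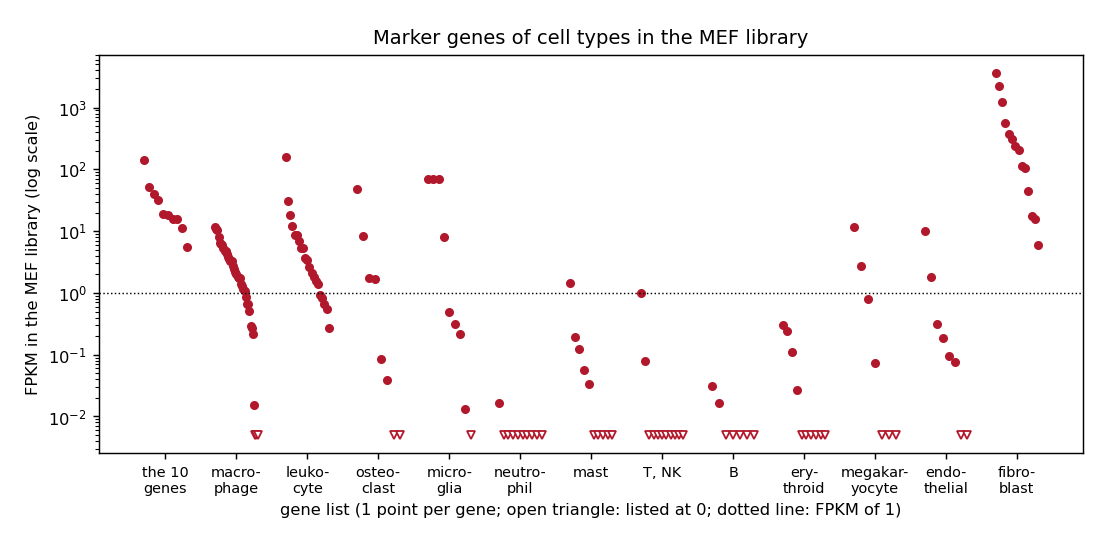
FPKM in the MEF library (log axis) of the genes of 13 lists, 1 point per gene; open triangles are genes listed at 0 and the dotted line is 1 FPKM. Most macrophage markers lay above the line, all fibroblast markers were above it, and no neutrophil, T and NK cell, B cell or erythroid gene was.

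Low values of the set in V6.5 and iPSCs can be read beside those of fibroblast genes. The 10 genes kept a median of 0.483% of their MEF level in V6.5 and 0.658% in iPSCs, and the 14 fibroblast genes 1.63% and 0.198%. Among the 10, 2 were at 0 in V6.5 and 4 in iPSCs. Values such as Fcer1g in V6.5 (about 1.54 fragments) and Lyz2 in iPSCs (about 2.49) were under the floor. The order of these medians is therefore not read. V6.5 was above iPSCs for 3 of the 10 genes (C1qa, C1qb and Lyz2) and below for 5, with Tyrobp and C1qc at 0 in both, but C1qb was under the floor in both and Ctss had nearly the same number of fragments in each (5.95 and 5.88). Of the 14 fibroblast genes, 13 were higher in V6.5 than in iPSCs, among them Col1a1 (20.5 against 1.68 FPKM), Postn (1.66 against 0.0185 FPKM) and Dcn (1.93 FPKM against 0), a pair of matrix genes beside collagen. The share of all genes higher in V6.5 than in iPSCs was not computed, so nothing is read from the count of the 10 or of the 14. Whether the V6.5 values of C1qa, C1qb and Lyz2 are linked to those of the fibroblast genes was not tested.

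By distance of log2(FPKM + 0.1) over the 5 libraries, the 10 genes nearest to C1qc held 2 of the set, C1qb at a distance of 0.56 and Tyrobp at 1.15. The other 8 were C1qtnf3 (0.88), Ogn (0.89), Osr1 (1.01), Aspn (1.18), Adamts5 (1.23), Fmod (1.28), Smoc2 (1.33) and Gpr176 (1.45). Ogn, Aspn and Fmod encode small leucine-rich proteoglycans of connective tissue matrix, and their MEF levels were 26.7, 48.8 and 16.5 FPKM. In all, 66 genes had an FPKM of at least 10 in MEFs and under 0.5 in each of the 4 stem cell libraries, among them 5 of the set (C1qa, C1qb, C1qc, Tyrobp and Ctss). Macrophage and matrix genes thus stood side by side on this measure, which has 1 library with high values.

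The knockdown comparison was not used to choose the genes, but it holds little of them. Of the 10, 6 were listed at 0 in NTC and 8 in shGldc, beside 9086 and 9092 of all 24421 genes. Cd68 alone reached 1 FPKM in either. Its log2 ratio of shGldc over NTC was -0.04, so 0 of 1 was at least 2-fold different, where 16.7% of 11969 genes were, 7.68% being lower. Cd14 (0.537 FPKM in NTC and 0.942 FPKM in shGldc), Fcer1g (0.578 FPKM and 0) and Ctss (0.0254 FPKM and 0) were below the filter. For genes listed at 0 in NTC a further fall could not have been seen.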

How the data were processed

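RNA was extracted with TRIzol, libraries were made with the NEBNext Ultra RNA kit, and sequencing was done on an Illumina HiSeq instrument. The authors aligned reads with TopHat2 (2.1.0), used SAMtools (1.7), assembled transcripts with StringTie (1.3.4d) and computed expression with Ballgown, and they deposited FPKM values in 2 tables made separately. Versions are those of the submitters' processing notes, which name the builds mm10 and mm9, while the study's methods name mm10. The annotation, strand setting and filters are not given in the sources used here, so overlapping genes cannot be separated. FPKM corrects for length and depth, not for RNA composition.

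From these values, log2(FPKM + 0.1) differences were computed within a table, keeping genes that reached 1 FPKM in either library compared, and ratios of at least 2-fold or 32-fold were counted. With 1 library per group no test was possible. Depth was estimated from the steps between low FPKM values of 5723 genes with 1 transcript, and 3 fragments were taken as the floor. Positions, lengths and shared 50-base stretches came from GENCODE M21 (mm10). Python 3.11.15, numpy 2.4.6, pandas 2.3.3 and matplotlib 3.10.9 were used.

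The 10 genes and all gene lists were chosen with earlier results of these data known. Named genes were the 10, of every list the 3 with the highest MEF level, genes of the macrophage, leukocyte, pathway and lysosome lists at or above 1 FPKM in MEFs with a role beside one of the 10, the 10 genes nearest to C1qc, Gldc, and defining markers of other cell types at or near 0 in MEFs. Class II genes, C3, C4b, Lyz1, Ptprc and Lyve1 were added after their values were seen. Alternatives were other pseudocounts, filters and scalings, and, chosen after seeing the data, values under 3 fragments set to 3 fragments. Values of some single listed genes are not reported here.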

Additional observations from a re-analysis of the deposited data

Results flagged for a closer look

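Cd68 was the one gene of the set whose log2 ratio to MEFs had opposite signs in the stem cell libraries, -1.04 in V6.5 and 0.0888 in iPSCs. Each group was 1 library and both ratios share the MEF library, so the difference was not tested. The iPSC ratio was -0.21 after rescaling to 1 FPKM sum and -0.23 when ratios were centred on the median of all genes, but 0.10 after rescaling by the upper quartile, so its sign depended on the scaling.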

How the results depend on the processing

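The pseudocount moved the size of the differences most, since most stem cell values were near 0. The median log2 ratio of the 10 genes was -4.08 in V6.5 and -4.02 in iPSCs with a pseudocount of 1, and -7.50 and -8.39 with 0.01. With a pseudocount of 1, Cd68 was no longer at least 2-fold lower in V6.5, which left 9 genes. At that setting 4 genes were at least 32-fold lower in V6.5 and 4 in iPSCs, and the share of all genes was 0.506% and 0.752%; with 0.01 that share was 3.20% and 3.84%, and with no filter 0.897% and 1.24%. For shGldc over NTC, 1 of the 10 genes was at least 2-fold different with no filter, Fcer1g, where 15.7% of all genes were, and that share was 9.96% with a pseudocount of 1 and 9.81% with a filter at 5 FPKM. Of 21 ratios of single genes, 17 moved by more than 0.59 with a pseudocount of 1, 10 with 0.01, and none with either rescaling. This 0.59 is the robust SD of log2 NTC over V6.5 across the separately made tables. Other filters cannot move the ratio of a single gene, and centring shifts all ratios of a comparison by the same amount, here below 0.59. Of 20 ratios, 5 moved with values under 3 fragments set to 3. No paired analysis was possible because each group was 1 library. Leaving out a replicate was not possible for the same reason. Values under about 3 fragments cannot be told from 0 at this depth.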

Other observations

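Most class II genes were higher in the stem cell libraries than in MEFs, and they also differed between NTC and shGldc. Of 6 such genes that passed the filter, 5 were at least 2-fold lower in shGldc, where 7.68% of 11969 genes were, among them H2-Ab1 (15.6 FPKM in NTC and 0.682 FPKM in shGldc) and Cd74 (17.4 and 5.11 FPKM), while H2-Eb1 was at 25.2 and 22.0 FPKM. Untreated V6.5 cells, in the separately made table, had 6.83 FPKM of H2-Ab1, 8.59 FPKM of Cd74 and 5.79 FPKM of H2-Eb1. Ciita, the class II transactivator, was at 0.440 FPKM in NTC and 0.284 FPKM in shGldc. Each value is 1 library. The class II genes were added after their values were seen, so nothing is read from their count beside the share of all genes.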
